A study of Homo sapiens with 3 samples.

Results

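Occupancy of the chromatin remodeler CHD8 and of TRRAP, a scaffold subunit of histone acetyltransferase complexes, was examined at 9 small RNA genes that RNA polymerase III transcribes from promoters lying upstream of the gene (type 3 promoters): RNU6-1, RNU6-2, RNU6-7, RNU6-8, RNU6-9, RNU6ATAC, RN7SK, RMRP and RPPH1. They were taken by name from the 62663 genes that GENCODE release 44 places on chromosomes 1 to 22, X and Y of GRCh38. The data were peak lists from chromatin immunoprecipitation and sequencing (ChIP-seq) of wild-type human neural stem cells. They had been made from H9, an embryonic stem cell line in wide use, and were kept in medium with EGF and FGF. Peaks of both proteins touched the 1 kb on either side of the starts of SOX2, NES and PAX6, genes of neural stem cells, with the CHD8 summit of SOX2 further out at −1334 bp. RNA was not measured, so this does not check the cell type. Chromatin was crosslinked with 2 mM disuccinimidyl glutarate and 1% formaldehyde. There was 1 library per antibody and no treatment, so no value below has a replicate error and no p-value was computed. The IgG control library was not analysed here.

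Type 3 promoters combine a TATA box and a proximal sequence element, which the SNAPc complex binds close to the start, with a distal sequence element further upstream that often holds an octamer for POU2F1 (OCT1) or a site for ZNF143. All control sequence therefore lies outside the transcribed part, unlike in transfer RNA or 5S ribosomal RNA genes. The products are the U6 and U6atac RNAs of the major and minor spliceosomes, the 7SK RNA that holds the elongation factor P-TEFb inactive, and the RNA parts of RNase MRP (RMRP) and RNase P (RPPH1). CHD8 is known to act at U6 promoters. The human genome also holds many U6 copies that were made by retrotransposition, mostly lack this upstream sequence and are annotated as pseudogenes.

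The upstream sequences that define the members are shown from 80 bp upstream to 10 bp past the first base of the gene, as read from the GRCh38 reference on the gene strand. Capitals mark exact matches to TATA between 15 and 40 bp upstream and to ACCNNNA, a word of the proximal sequence element, between 45 and 75 bp upstream.
RNU6-1 (chr15:67840035-67840125, minus strand): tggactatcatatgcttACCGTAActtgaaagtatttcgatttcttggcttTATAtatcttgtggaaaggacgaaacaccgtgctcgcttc
RNU6-7 (chr14:32201965-32202055, plus strand): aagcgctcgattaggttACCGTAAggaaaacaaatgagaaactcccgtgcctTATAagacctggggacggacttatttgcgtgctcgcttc
RNU6-8 (chr14:32203259-32203349, minus strand): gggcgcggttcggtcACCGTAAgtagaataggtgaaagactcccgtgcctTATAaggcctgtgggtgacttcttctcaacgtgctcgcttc
RNU6-9 (chr19:893404-893494, plus strand): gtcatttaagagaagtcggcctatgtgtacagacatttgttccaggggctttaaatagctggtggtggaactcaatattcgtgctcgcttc
RNU6-2 (chr19:1021442-1021532, plus strand): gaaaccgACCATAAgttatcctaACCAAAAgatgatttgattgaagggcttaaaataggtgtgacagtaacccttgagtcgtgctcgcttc
RNU6ATAC (chr9:134164554-134164644, minus strand): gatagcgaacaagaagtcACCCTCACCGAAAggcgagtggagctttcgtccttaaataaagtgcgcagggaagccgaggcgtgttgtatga
RN7SK (chr6:52995541-52995631, plus strand): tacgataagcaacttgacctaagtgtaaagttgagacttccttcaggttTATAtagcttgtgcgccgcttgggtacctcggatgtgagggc
RMRP (chr9:35658007-35658097, minus strand): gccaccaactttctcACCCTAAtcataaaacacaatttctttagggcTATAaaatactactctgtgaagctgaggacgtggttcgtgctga
RPPH1 (chr14:20343397-20343487, minus strand): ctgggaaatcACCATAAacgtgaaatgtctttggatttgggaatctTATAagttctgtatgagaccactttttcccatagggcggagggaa

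The TATA word was present in 6 of 9 members. RNU6-2, RNU6-9 and RNU6ATAC lacked it and had other runs of A and T at that place. The ACCNNNA word was present in 7 of 9, with RNU6-9 and RN7SK as the exceptions. The octamer, searched as ATGCAAAT and as its reverse complement ATTTGCAT within 250 bp upstream, was present in 6 of 9, and in 5 of these it began between −224 and −217 bp, counted from the first base of the gene as 0 with negative values upstream. In RPPH1 it began at −101 bp. The octamers are shown in capitals within 48 bp of sequence because peaks described below lie over or next to them, except in RMRP. RNU6-8 has the same 48 bp as RNU6-7.
RNU6-1 (chr15:67840239-67840286, minus strand): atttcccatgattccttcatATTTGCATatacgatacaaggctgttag
RNU6-7 (chr14:32201804-32201851, plus strand): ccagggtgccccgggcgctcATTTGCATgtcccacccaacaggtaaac
RNU6-9 (chr19:893240-893287, plus strand): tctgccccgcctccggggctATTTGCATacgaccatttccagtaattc
RMRP (chr9:35658207-35658254, minus strand): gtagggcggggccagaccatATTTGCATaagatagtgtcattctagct
RPPH1 (chr14:20343481-20343528, minus strand): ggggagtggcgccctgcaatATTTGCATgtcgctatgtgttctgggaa

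The ZNF143 word, searched as CCCANNATG on both strands, was found in 1 of 9 members, at −153 bp in RN7SK, and in 3.15% of the U6 pseudogene copies described below. A word is a description of the sequence and not a measured binding site. The genes of the 5 U6 members differed from each other by 0 or 1 base over 107 bp, whereas the 400 bp before them were 48.5% to 53.3% identical, except for RNU6-7 and RNU6-8, which were 82.0% identical.

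CHD8 had a peak at all 9 members and TRRAP at 8, counting peaks that shared at least 1 bp with the stretch from 1 kb upstream of the gene to 500 bp past its end. RNU6-8 was the member without TRRAP. Among all 4121 annotated snRNA, misc_RNA and ribozyme genes, the same windows held a CHD8 peak in 3.25% and a TRRAP peak in 2.45%. Pseudogene copies were not left out of this set. Of 17 polymerase II snRNA genes, described below, 16 had CHD8 and 10 had TRRAP, so such peaks are not particular to the members. The Wilson 95% interval of the members' share was 70.1% to 100% for CHD8 and 56.5% to 98.0% for TRRAP, and it covers counting error only. At 8 members a CHD8 and a TRRAP peak overlapped. Peaks of both were common elsewhere: of 7000 protein-coding genes with TRRAP within 1 kb of the start, 6802 also had CHD8 there. Together the windows held 15 CHD8 and 12 TRRAP peaks, and 5 members had more than 1 CHD8 peak.

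**Figure D1:**
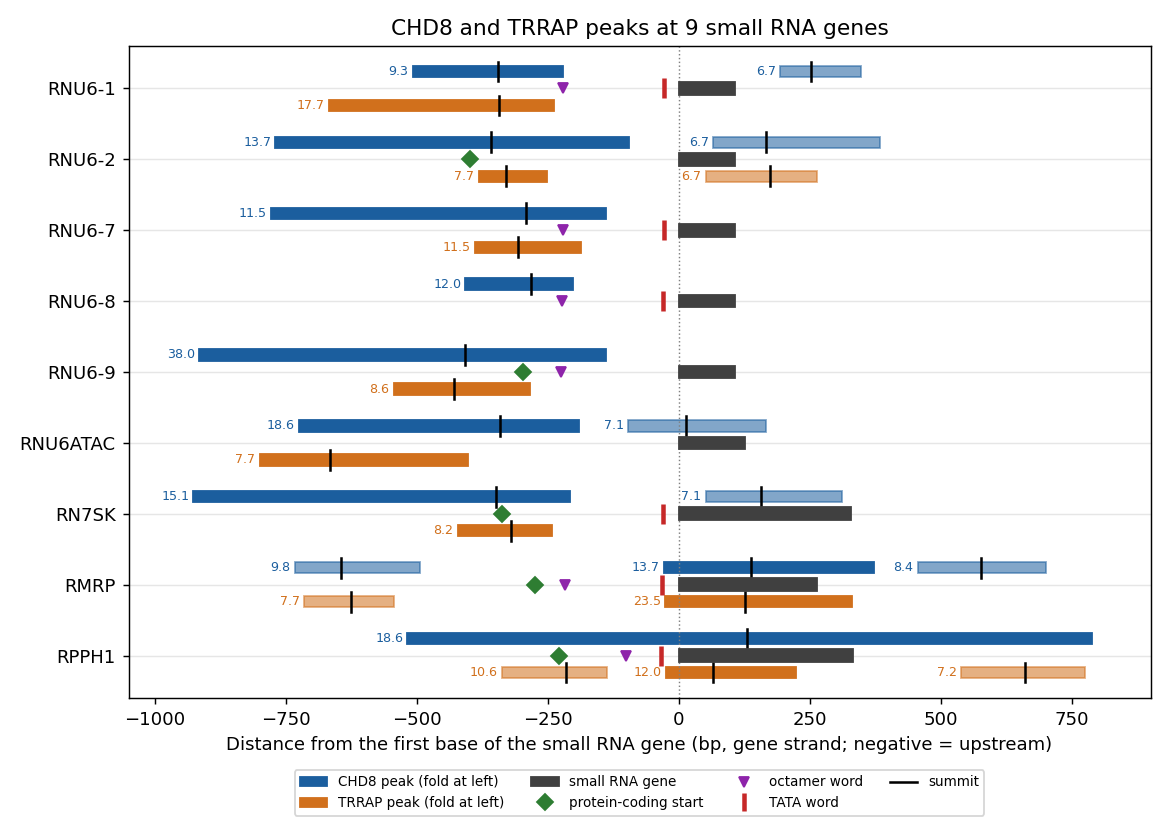
Peaks at the 9 members by distance from the first base of the gene (bp, gene strand). Bars are CHD8 (blue) and TRRAP (orange) peaks with the deposited fold at their left, paler where another peak of that antibody is stronger, and black ticks are summits; in 7 members the strongest CHD8 summit lies between −408 and −282 bp.

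The strongest CHD8 peaks lay at like distances upstream in 7 of 9 members. The summit of the strongest CHD8 peak lay at −345 bp in RNU6-1, −359 bp in RNU6-2, −292 bp in RNU6-7, −282 bp in RNU6-8, −408 bp in RNU6-9, −341 bp in RNU6ATAC and −349 bp in RN7SK. In the RNase genes it lay inside the gene instead, at 137 bp in RMRP and 130 bp in RPPH1. The strongest TRRAP summit was upstream in 6 of 8 members, with a median over all 8 of −325.5 bp, and again inside the gene in RMRP (127 bp) and RPPH1 (65 bp). With the peak nearest to the start in place of the strongest, the CHD8 summit was upstream in only 3 of 9 members and the median turned from −341 to 130 bp.

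Each U6 gene was described by its own peaks. RNU6-9 (chromosome 19, 893484 to 893590) had the strongest CHD8 peak of the members. It spanned 892569 to 893344 and its fold was 38.0, with a −log10 q of 111. The fold is the authors' value for how far the pileup at a peak exceeds what the caller took as background, and q is the p-value adjusted for false discoveries. The peak ranked 303 among 23393. Its TRRAP peak (892940 to 893200) had a fold of 8.65, close to the median of the TRRAP list (8.17). RNU6-9 was thus the highest member for CHD8 but not for TRRAP.

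RNU6-1 (chromosome 15, 67839939 to 67840045), whose promoter is the U6 promoter widely used to express short RNAs, showed the opposite order within the lists. TRRAP covered 67840285 to 67840712 with a fold of 17.7 and a −log10 q of 34.8, which ranked 1033 among 14735 peaks. CHD8 covered 67840267 to 67840553 with a fold of 9.31, the median of the CHD8 list, and 51.2% of that list ranked above it. The summits of the pair were 2 bp apart. A second, weaker CHD8 peak with a fold of 6.66 lay past the gene, with its summit at 252 bp.

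RNU6-7 (chromosome 14, 32202045 to 32202151) and RNU6-8 (32203163 to 32203269) point at each other with 1011 bp between them. At RNU6-7, CHD8 covered 32201266 to 32201906 and TRRAP 32201656 to 32201857, both with a fold of 11.5. At RNU6-8, CHD8 covered 32203471 to 32203676 with a fold of 12.0. No TRRAP peak was listed at RNU6-8, although its CHD8 fold was no lower than that of RNU6-7. The nearest TRRAP peak was that of RNU6-7, with its summit 1531 bp away. Because a list gives only what passed its threshold, TRRAP below that threshold at RNU6-8 cannot be told from none.

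RNU6-2 (chromosome 19, 1021522 to 1021628) had a CHD8 peak upstream and another that began inside the gene, with its summit past the gene end. The upstream peak (1020752 to 1021426) had a fold of 13.7 and the downstream peak (1021588 to 1021904) a fold of 6.66. TRRAP followed the same arrangement, with folds of 7.69 upstream and 6.73 downstream. The CHD8 and TRRAP summits were 29 bp apart upstream and 7 bp apart downstream.

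RNU6ATAC (chromosome 9, 134164439 to 134164564) encodes the U6 counterpart of the minor spliceosome. Its strongest CHD8 peak (134164756 to 134165289) had a fold of 18.6 and a −log10 q of 41.2, and a second one with a fold of 7.10 covered the gene's first base. The TRRAP peak (134164967 to 134165364) had a fold of 7.69. Its summit lay at −665 bp, 324 bp from the CHD8 summit, the widest gap among the 8 pairs of strongest peaks.

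RN7SK (chromosome 6, 52995621 to 52995948) had an upstream CHD8 peak (52994695 to 52995412) with a fold of 15.1 and one within the gene with a fold of 7.10. The sequence at the summit of the latter had a median of 4 copies in the genome. Its TRRAP peak (52995199 to 52995379) had a fold of 8.17. The upstream CHD8 and TRRAP summits were 28 bp apart.

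RMRP (chromosome 9, 35657754 to 35658017) had the strongest TRRAP peak of the members. It spanned 35657687 to 35658043 with a fold of 23.5 and a −log10 q of 52.5, and 3.44% of the TRRAP list ranked above it. The CHD8 peak there (35657646 to 35658045) had a fold of 13.7, with its summit 10 bp from that of TRRAP. Both covered the whole gene and began just before it, at −26 bp (TRRAP) and −28 bp (CHD8). Further upstream, a weaker pair had folds of 9.75 (CHD8) and 7.69 (TRRAP).

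RPPH1 (chromosome 14, 20343075 to 20343407) had the widest CHD8 peak of the members, 1307 bp (20342619 to 20343925), with a fold of 18.6. It held 3 separate TRRAP peaks. Their folds were 10.6 at −215 bp, 12.0 at 65 bp and 7.21 at 660 bp. One broad CHD8 interval was thus divided into several TRRAP intervals at this gene.

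**Figure D2:**
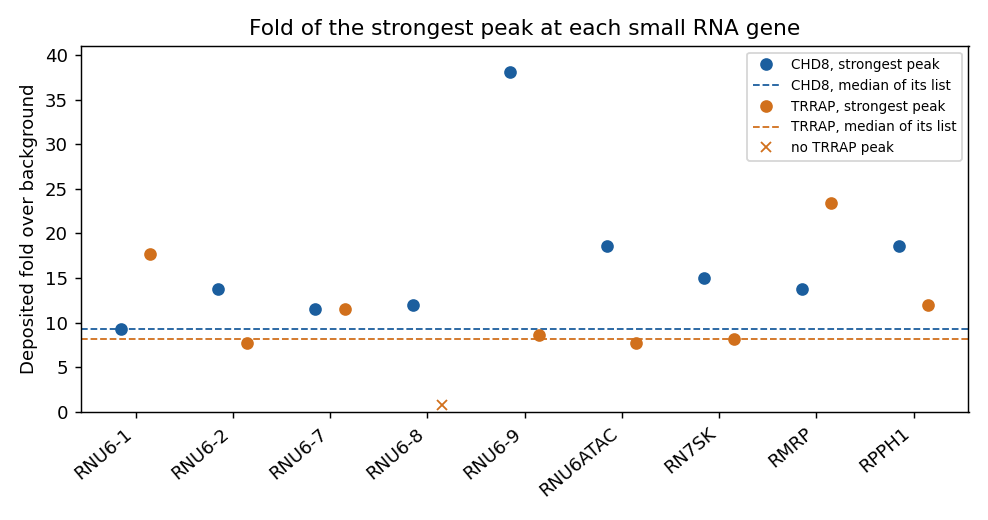
Deposited fold (vertical axis) of the strongest CHD8 (blue) and TRRAP (orange) peak at each member, with the median of each list as a dashed line and a cross where no TRRAP peak was listed. RNU6-9 stands highest for CHD8 (38.0), RMRP (23.5) and RNU6-1 (17.7) for TRRAP.

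Across members, the strongest CHD8 peaks had a median fold of 13.7 (9.31 to 38.0, 9 members), beside 9.31 in the whole CHD8 list, and 8 of 9 lay above that value. The strongest TRRAP peaks had a median fold of 10.1 (7.69 to 23.5, 8 members), beside 8.17 in the TRRAP list, and 5 of 8 lay above it. Taking the strongest of several peaks raises such medians. In 6 of the 8 members with both, the strongest summits were within 30 bp of each other.

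Listed peaks reached the core promoter in a minority of members. Where a peak ends depends on the threshold, so protein below it at the core promoter cannot be told from none. None of the 5 U6 genes had a CHD8 or TRRAP peak touching the 80 bp before the gene, and among the other members 3 had a CHD8 peak there (RNU6ATAC, RMRP and RPPH1) and 2 a TRRAP peak (RMRP and RPPH1). A CHD8 peak touched the stretch from 100 to 500 bp upstream in all 9 members, and a TRRAP peak did so in 7. The octamer lay inside a CHD8 peak in 4 of 6 members (RNU6-7, RNU6-8, RNU6-9 and RPPH1) and inside a TRRAP peak in 1 (RNU6-7). In the U6 genes with an octamer, the CHD8 summit was 60 to 184 bp further upstream than the octamer.

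Repeated sequence was measured beside this pattern, because reads from identical copies cannot be placed uniquely. Words of 32 bases from the U6 genes occurred a median of 29 times in the genome and at most 49 times. How such reads were treated is not given in the sources used here. The summits of the strongest peaks of both antibodies at all members were single-copy by the same measure. In the 400 bp before the gene, repeated words were found only in RNU6-7 and RNU6-8, with 28 each. RMRP and RPPH1 had no repeated word inside the gene, and these were the members with their strongest summits there. RNU6ATAC and RN7SK had weaker CHD8 summits inside genes with repeated words. At RNU6-2 the weaker downstream peaks of both antibodies began inside the gene, and their summits, past its end, were single-copy. The part of repeated sequence in the placement of the summits was not tested.

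Protein-coding genes start close to 5 of the members, on the opposite strand and upstream. The canonical start lay at −297 bp for RNU6-9 (MED16, a Mediator subunit), −399 bp for RNU6-2 (TMEM259), −337 bp for RN7SK (GSTA4, a glutathione transferase), −275 bp for RMRP (CCDC107) and −228 bp for RPPH1 (PARP2, a DNA repair enzyme). At these 5, occupancy of the small RNA gene and of the coding promoter cannot be told apart. The CHD8 summit was 12 bp from the GSTA4 start at RN7SK and 40 bp from the TMEM259 start at RNU6-2. Within 1 kb of their starts, 55.9% of all 20033 protein-coding genes had CHD8, 34.9% had TRRAP and 34.0% had both, so peaks at such places are common.

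The other 4 members lay far from coding genes. Over all annotated transcripts the nearest coding start was at 14529 bp from RNU6-1 (SKOR1), at 28482 bp from RNU6ATAC (WDR5), and at −48035 bp from RNU6-7 and 49259 bp from RNU6-8 (ARHGAP5). All 4 had CHD8, with folds of 9.31 to 18.6, and 3 had TRRAP. Their strongest CHD8 summits lay between −345 and −282 bp. In the 5 members with a coding neighbour they lay between −408 and −349 bp (RNU6-2, RNU6-9 and RN7SK) or inside the gene (RMRP and RPPH1). A long noncoding RNA gene starts on the opposite strand at −309 bp from RNU6-7, close to its CHD8 summit at −292 bp. RNU6-1 lies inside another such gene, which starts at 7320 bp. For RNU6-1, RNU6-8 and RNU6ATAC no other annotated gene had its canonical start within 1 kb.

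U6 pseudogene copies were almost free of peaks. Of 1271 copies, 6 had a CHD8 peak in the same window (0.472%, Wilson 95% interval 0.217% to 1.03%), 3 had a TRRAP peak (0.236%, 0.0803% to 0.692%) and 2 had overlapping peaks of both (0.157%, 0.0432% to 0.572%). The intervals of the members and the copies did not overlap for either antibody. They cover counting error only, from 1 library, and the members were chosen with earlier results known, so this is not a test. Coding genes start within 1 kb of 5 members but of only 2 copies. Among genes without such a start, CHD8 was at 4 of 4 members and 4 of 1269 copies. TRRAP was at 3 of these 4 members and 2 of these 1269 copies. No copy had a summit of its strongest peak within 430 bp of its start, a limit set after the members' values were seen. All 9 members had such a CHD8 summit and 7 of 8 a TRRAP summit.

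**Figure D3:**
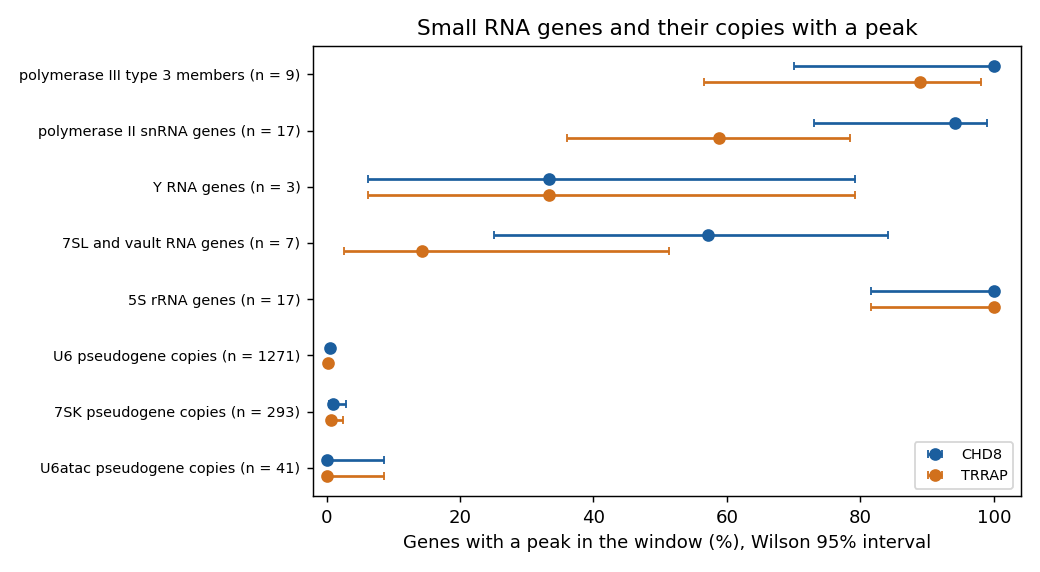
Share of genes with a CHD8 (blue) or TRRAP (orange) peak from 1 kb upstream to 500 bp past the gene, in percent with Wilson 95% intervals, for the members and 7 comparison classes. The U6 copies stand at 0.472% and 0.236%, the members at 100% and 88.9%.

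The 7 copies with any peak were named. RNU6-1276P had the highest CHD8 fold (23.5, summit at −954 bp), followed by RNU6-92P (12.8, −821 bp), RNU6-1114P (7.98, 488 bp) and RNU6-103P (7.10, −1034 bp), and RNU6-270P and RNU6-722P both had a fold of 6.22. TRRAP peaks were listed at RNU6-103P (fold 12.9), RNU6-92P (8.65) and RNU6-821P (7.69). Coding genes start close to the top pair, with ESCO2 at 909 bp from RNU6-1276P and CHCHD3 at −739 bp from RNU6-92P. The strongest CHD8 summit of RNU6-1276P, at −954 bp, lay on the other side of the copy from the ESCO2 start. The 91 bp around the start of the copies with both peaks are shown for comparison with the members, and neither holds the TATA or ACCNNNA word at its place.
RNU6-92P (chr7:133082749-133082839, plus strand): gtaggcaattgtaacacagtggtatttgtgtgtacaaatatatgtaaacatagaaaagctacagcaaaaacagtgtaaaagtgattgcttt
RNU6-103P (chr16:58496828-58496918, plus strand): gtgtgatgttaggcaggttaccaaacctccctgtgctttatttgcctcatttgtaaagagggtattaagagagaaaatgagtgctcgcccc

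Copies nearly identical to U6 were counted separately. Of 39 copies at least 95% identical to RNU6-1, 0 had a peak of either antibody (upper Wilson limit 8.97%). Among them were 4 identical copies, RNU6-3P, RNU6-4P, RNU6-5P and RNU6-6P. Over all 1271 copies the share with a peak of either antibody was 0.551%, so 39 copies are too few to show a difference. The 7 copies with a peak were 72.9% to 84.1% identical, beside a median of 81.3% in the copies without a peak.

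The upstream words were less frequent in copies than in members. The members were chosen as genes with upstream promoters of this type, so this direction was set by the choice. TATA was at its place in 196 copies (15.4%, 13.5% to 17.5%), ACCNNNA in 102 (8.03%, 6.65% to 9.65%) and the octamer in 27 (2.12%, 1.46% to 3.07%). All 3 words together occurred in 5 of 9 members (RNU6-1, RNU6-7, RNU6-8, RMRP and RPPH1) and in 1 copy, which had no peak. Only 506 copies had the full length of 107 bp, and in truncated copies the annotated start is not the U6 start, so words may be missed there.

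The members also differed from the copies in base composition. Observed over expected CpG within 500 bp of the start was 0.721 to 1.11 in the members (median 0.899), and its median was 0.224 in the copies. Only 2 copies reached the lowest member, and neither had a peak. In the 7 copies with a peak the median ratio was 0.195. Their strongest CHD8 summits lay 488 to 1034 bp from the start and their TRRAP summits 718 to 1569 bp. The stretch measured thus missed most of these summits, so this median cannot show whether CpG content went with occupancy within the copies. Of the copies with an upstream word, a peak was at 1 of 196 with TATA, 0 of 102 with ACCNNNA and 0 of 27 with the octamer. Over all 1271 copies 7 had a peak (0.551%), so these counts are too small to compare. CHD8 was at 2 of 2 copies with a coding start within 1 kb and at 4 of the other 1269. Between members and copies, upstream words, CpG content and occupancy differed together. The difference in words follows at least in part from how the members were chosen, and the part of each was not tested.

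**Figure D4:**
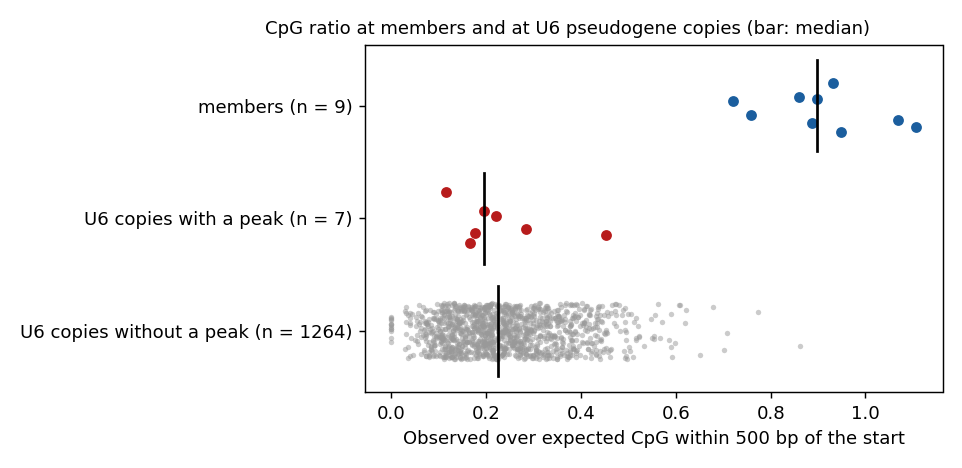
Observed over expected CpG within 500 bp of the gene start (horizontal axis) for U6 copies without a peak, U6 copies with a peak and the members, 1 point per gene and a bar at the median. The members lie between 0.721 and 1.11, above all but 2 of the copies.

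Base composition was also measured under the summits of the members. The stretches from 50 bp before to 50 bp after the strongest CHD8 summits were 61.4% to 78.2% G and C and held 6 to 15 CpG. At the strongest TRRAP summits the ranges were 63.4% to 78.2% and 3 to 15 CpG. The same was not measured for all peaks, so whether these values are particular to the members is unknown. A few such stretches are shown on the gene strand: the TRRAP summits of RNU6-1 and RMRP, which had the highest TRRAP folds of the members, and the CHD8 summit of RNU6-9, the highest for CHD8. Capitals mark CACGTG, the E-box bound by MYC and MAX.
RNU6-1 (chr15:67840338-67840438, minus strand): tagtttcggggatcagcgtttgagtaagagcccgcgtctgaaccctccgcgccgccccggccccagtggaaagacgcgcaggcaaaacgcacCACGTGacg
RMRP (chr9:35657840-35657940, minus strand): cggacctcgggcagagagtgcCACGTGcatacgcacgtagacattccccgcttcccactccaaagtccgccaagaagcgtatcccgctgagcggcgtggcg
RNU6-9 (chr19:893026-893126, plus strand): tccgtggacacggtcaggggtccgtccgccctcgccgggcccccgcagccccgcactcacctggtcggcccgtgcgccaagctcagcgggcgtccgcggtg

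CACGTG was searched for after these sequences had been seen. It lay within 50 bp of the strongest TRRAP summit in 2 of 8 members and of the strongest CHD8 summit in 2 of 9, in each case RNU6-1 and RMRP. Of all peaks on chromosomes 1 to 22, X and Y, 4.14% of TRRAP and 2.97% of CHD8 summits had it at this distance. When the distance was widened to 100 bp the same members had the word, and the shares of all peaks rose to 7.03% for TRRAP and 5.37% for CHD8.

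The snRNA genes of RNA polymerase II carry the same proximal element and octamer but no TATA box, and were set beside the members. Of 17 such genes, 16 had CHD8 and 10 had TRRAP, with overlapping peaks at 9. RNU5F-1 had neither. RNU12 (26.1) and RNU1-1 (23.9) had the highest CHD8 folds, and RNU11 (34.9) and RNU1-1 (30.1) the highest TRRAP folds. RNU4-1 and RNU4-2 lie close together and had the same CHD8 peak as their strongest.

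Summits lay on the other side of the start in most of these genes. The strongest CHD8 summit was downstream in 11 of 16, with a median of 92 bp, against 2 of 9 members and a median of −341 bp. With the peak nearest to the start in place of the strongest, the members' median turned to 130 bp, on the same side as that of the polymerase II genes. The strongest TRRAP summit was downstream in 9 of 10, with a median of 336.5 bp, against 2 of 8 members and −325.5 bp. In this class 5 CHD8 and 5 TRRAP summits, at the U1 genes and RNU2-1, lay in sequence of 4 to 14 copies. The ranges of the classes overlapped, and with 1 library the difference was not tested.

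**Figure D5:**
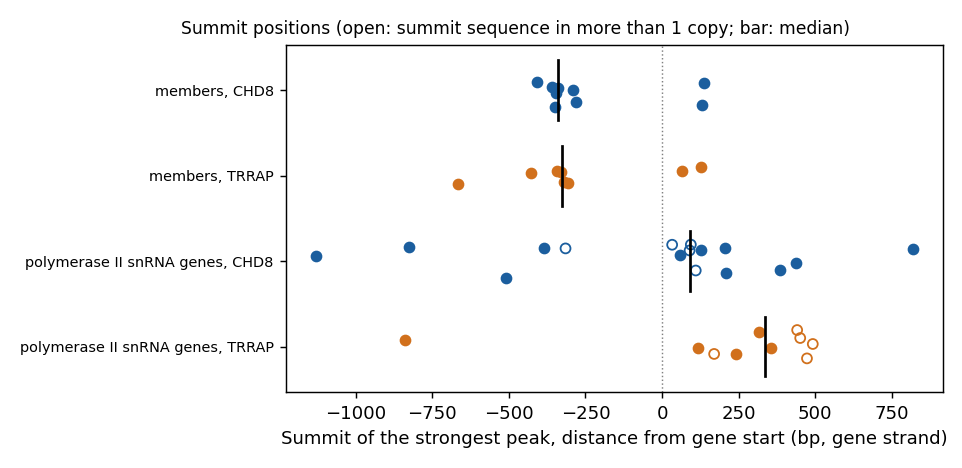
Summit of the strongest peak by distance from the gene start (bp, gene strand) at the members and at the polymerase II snRNA genes, 1 point per gene with a bar at the median. Open points are summits in sequence with more than 1 copy; the medians are −341 and −325.5 bp at the members and 92 and 336.5 bp at the polymerase II genes.

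Other polymerase III genes gave a mixed picture. Of the Y RNA genes, which also have type 3 promoters, RNY4 had CHD8 (fold 8.87, summit at −350 bp), RNY3 had TRRAP (7.21, −324 bp) and RNY1 had neither. Their summits fell at the distance seen in the U6 genes. Among 7 genes with internal promoters for 7SL and vault RNA, 4 had CHD8, namely RN7SL2 (18.6), RN7SL1 (12.8), RN7SL3 (12.4) and VTRNA1-1 (7.54), and 1 had TRRAP (RN7SL2, 5.78). VTRNA1-2, VTRNA1-3 and VTRNA2-1 had neither. RN7SL1 has the start of the ribosomal protein gene RPS29 at −200 bp. The summits were downstream of the start in each of the 4 genes. Those of CHD8 lay past the gene in RN7SL2 (663 bp) and in RN7SL3 (877 bp), where the coding gene NEMF starts at 1126 bp. The CHD8 summit of RN7SL1 and the TRRAP summit of RN7SL2 lay in sequence of 5 copies. All 17 annotated 5S ribosomal RNA genes had both, but they form 1 tandem array and every strongest summit there lay in repeated sequence, so they are not separate measurements.

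The genes for the polymerase III machinery, its regulators and the partners of the RNAs were counted as 1 group. Of 41 such protein-coding genes, 41 had a CHD8 peak within 1 kb of the start (Wilson 95% interval 91.4% to 100%), against the 55.9% of all coding genes given above. The CHD8 peaks of POLR1D and TBP only touched this stretch, with summits at −1020 and −1133 bp. TRRAP was at 26 of the 41 (63.4%, 48.1% to 76.4%), against 34.9%. Each of the 26 also had CHD8, as did 6802 of the 7000 coding genes with TRRAP. The median fold in the group was 15.9 for CHD8 and 9.12 for TRRAP. CpG content was not matched in this comparison.

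By role, CHD8 was at 18 of 18 polymerase III subunit genes and TRRAP at 10, beside 55.9% and 34.9% of all coding genes. POLR3F (29.2) and POLR3B (25.2) had the highest CHD8 folds, and the TRRAP fold at POLR3F was 14.9. Of 16 initiation factor genes, 16 had CHD8 and 9 had TRRAP. GTF3C5 (36.3) and GTF3C6 (28.8), subunits of TFIIIC, were highest for CHD8. SNAPC2 (19.6), a subunit of SNAPc, and GTF3C4 (17.2) were highest for TRRAP.

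Within the factors that serve type 3 promoters, SNAPC2 and SNAPC3 had both proteins, and SNAPC1, SNAPC4 and SNAPC5 had CHD8 alone. BRF2, the TFIIB-like factor used at type 3 promoters, had CHD8 (25.2) without TRRAP, whereas BRF1, its counterpart at genes with internal promoters, had both (9.75 and 7.21). ZNF143, the activator of the distal element, had folds of 38.9 for CHD8 and 11.5 for TRRAP. POU2F1 (19.0 and 8.65) and MAF1, the repressor of polymerase III (25.7 and 6.73), also had both.

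All 4 genes for partners of the RNAs had both proteins. HEXIM1, which inhibits P-TEFb together with 7SK, had folds of 34.1 for CHD8 and 25.4 for TRRAP. MEPCE, which caps 7SK, had 20.4 and 14.4. LARP7, which binds the end of 7SK, had 18.1 and 5.78, and SSB, the La protein that binds the ends of new polymerase III transcripts, had 11.1 and 7.69.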

How the data were processed

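ChIP-seq peak lists for CHD8 (23393 peaks) and TRRAP (14735 peaks), 1 library each, were used. The submitters' processing notes name HISAT2, MACS2 2.1.1.20160309 and GRCh38. Filters, control and read totals are not given in the sources used here, so depth is unknown. The files have no header line and the 10 columns of a narrowPeak list. The deposited values are a fold (a linear ratio to the caller's background), −log10 p and −log10 q. The deposited score equals 10 times −log10 q, rounded down. The file names give false discovery limits of 0.0001 for CHD8 and 0.001 for TRRAP. All 84 and 88 sequence names were found in the GRCh38 reference, and 0 peaks ran past a sequence end.

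Genes were taken from GENCODE 44 by symbol: 9 of 9 members, 17 of 18 polymerase II snRNA symbols (RNU2-1 and RNU2-2P for U2) and 3 of 4 Y RNA symbols. Canonical transcripts gave coding starts. Where several peaks touched a window, the one with the highest fold was taken. Copy number is the median genome count of the 32-base words within 50 bp of a summit, on both strands, alternate sequences left out. Sequences came from the reference. The named genes were the members, the 5 U6 copies with the highest fold of each antibody, the 2 highest of each class or list, every gene of a class where 5 or fewer had or lacked a peak, and the nearest coding genes. One gene that this rule names is not reported here. BRF1, BRF2, POLR1D, SNAPC1, SNAPC3, SNAPC4, SNAPC5, TBP and the 4 identical U6 copies were chosen after their values were seen.

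The members and lists were chosen with earlier results of these data known. Shares carry Wilson 95% intervals, for counting error only. The overlap and copy-number routines were tested on simulated data. Versions were samtools 1.23.1, edlib 1.3.9.post1, matplotlib 3.10.9, pandas 2.3.3 with numpy 2.4.6, numba 0.67.0, pysam 0.24.0 and scipy 1.17.1, under Python 3.11.15.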

Additional observations from a re-analysis of the deposited data

How the results depend on the processing

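All alternatives were planned. CHD8 was at 9 members with the summit inside the window, from 250 bp upstream to 50 bp past the start, with 2.5 kb on each side and with single-copy summits, at 8 above the median rank of its list, and at 4 of 4 members away from coding starts. TRRAP was at 5 members within 250 bp upstream to 50 bp past the start, at 5 above the median rank, and at 3 of 4 away from coding starts; with 2.5 kb it was at 9, because RNU6-8 then reaches the peak of RNU6-7. The fewer members away from coding starts follow from leaving out 5 genes. The share of U6 copies with CHD8 was 0.0787% within 250 bp upstream to 50 bp past the start, 2.75% with 2.5 kb and 0.157% above the median rank. For TRRAP it was 0% (0 of 1271) and 1.18% with the first 2 of these windows. Members stayed above copies under each of these settings. Taking the peak nearest to the start in place of the strongest turned the median CHD8 offset from −341 to 130 bp, since weaker peaks lie inside or past the gene, and that of TRRAP became −314 bp. Overlapping peaks were at 8 members with 50% of the shorter peak shared and at 7 with summits within 200 bp. No paired analysis was possible because each antibody had 1 library and no test was made. Without read totals, peaks below the threshold cannot be told from none.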

Other observations

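Copies of 7SK, U6atac and RMRP were also nearly free of peaks. These classes were added after the data were seen. Of 293 copies of 7SK, 3 had a CHD8 peak (1.02%, Wilson 95% interval 0.349% to 2.97%) and 2 a TRRAP peak (0.683%, 0.187% to 2.45%). The strongest was at RN7SKP114, with folds of 18.6 for CHD8 and 14.4 for TRRAP, and the coding gene UBAP2 starts at −1079 bp from it. RN7SKP175 had folds of 13.3 and 5.30, with ZC3H3 starting at −663 bp, and RN7SKP249 had a CHD8 fold of 7.98. Their CHD8 summits lay between −865 and −477 bp, further upstream than at RN7SK itself (−349 bp). Of 41 copies of U6atac, 0 had a peak of either antibody (upper Wilson limit 8.57%). The 1 annotated RMRP copy had none.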
